A study of Mus musculus with 22 samples.

Results

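Stromal cells of mammary tumors that carried the TdTomato (TdT) reporter were compared between those that also carried CD45 and those that did not. The comparison took the TdT-positive libraries of the series, which are titled Osx+, and set the 6 titled CD45+ (3 wild type and 3 Cdh2-cKO) against the 4 titled CD45- (2 wild type and 2 Cdh2-cKO). These are 10 of the 22 libraries of the series, and the genotype on the label entered the fit as a covariate. The other 12 libraries, from TdT-negative cells, entered the test of whether the CD45 difference depended on TdT. They also entered an alternative fit of the main comparison, over all 22 libraries.

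The study asks which stromal cells of tumors outside bone come from cells that had expressed osterix, and measured RNA in sorted stromal cells. The labels add a deletion of Cdh2, the gene of N-cadherin. All mice were C57BL/6 at postnatal day 56, all carried the Osx-cre transgene and the Ai9 allele, from which Cre releases TdT, and all had been inoculated with a mouse mammary tumor line that carries GFP. The labels call the tumors orthotopic MMTV-BO1, while the series design states subcutaneous tumors and the paper names the line PyMT-BO1. In Osx-cre a promoter of Sp7, the gene of osterix, drives a tetracycline-repressible Cre. The paper states that its studies after the first section, which include the RNA sequencing, used doxycycline-fed Osx-cre;TdT mice. That chow was given until weaning and holds Cre back until then, and the labels do not state the diet. The wild type (WT) group carried Osx-cre and Ai9 alone, and the Cdh2-cKO (cKO) group carried in addition Cdh2 alleles that Cre deletes. TdT therefore marked any cell with present or past activity of the transgene, and by design Cdh2 could be deleted only in such cells. The preparations had been selected for RNA integrity, and the labels do not state which mouse gave which library, so each p value below measures the spread between libraries.

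Osterix is a transcription factor that bone-forming cells need, and Cre under its promoter is also active in some cells outside bone, blood cells among them. CD45, the product of Ptprc, is a tyrosine phosphatase on the surface of nucleated blood cells. Fibroblasts of a tumor lay down and crosslink its collagen matrix, whereas its macrophages take up debris, present antigen and release cytokines.

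Each library held 18467273 to 26784003 counts on genes, so that 3 counts corresponded to 0.104 to 0.172 CPM, the counts of a gene scaled to the size of its library. Levels below are CPM on TMM-scaled library sizes, values of the 4 CD45- libraries are given in the order WT replicate 1, WT replicate 2, cKO replicate 1 and cKO replicate 2, and those of the 6 CD45+ libraries as the lowest, highest and median. Log2 fold changes are CD45+ minus CD45-, with their standard error (SE), and a gene was called where its edgeR p value, adjusted by the Benjamini-Hochberg method over 14232 genes, was at most 0.05.

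Cdh2, the gene that the cKO label concerns, had 9.21, 5.21, 17.4 and 13 CPM in the CD45- libraries and 0 to 0.687 (median 0.405) in the CD45+ libraries. The CD45- libraries labelled cKO were higher than those labelled WT, so the counts per gene, which do not separate the deleted from the remaining part of the gene, did not bear the label out. Cdh2 was lower in CD45+ cells without overlap (log2 fold change -4.73, SE 0.62, adjusted p 0.000164). Ptprc had 2.47, 81.6, 165 and 89.6 CPM in the CD45- libraries and 452 to 686 (median 611) in the CD45+ libraries. The groups did not overlap, and the library labelled CD45- WT replicate 1 was far below the other 3 CD45- libraries (log2 fold change 2.89, SE 0.80, adjusted p 0.0131). With the replicate number as a block in place of genotype the adjusted p of Ptprc was 0.0568. Sp7 had 0 counts in all 10 libraries, as did Bglap, Bglap2 and Sost, late markers of bone-forming cells, in all CD45- libraries. These late markers were not at 0 in every CD45+ library but were too low to be tested, so neither arm is named here as an osteoblast population.

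The CD45- libraries held RNA of leukocyte genes in unequal amounts. The summed level of 23 pan-leukocyte genes was 1094, 3815, 8473 and 3906 CPM in the CD45- libraries and 21210 to 23480 (median 22120) in the CD45+ libraries, with Srgn, which encodes the granule proteoglycan serglycin, as the most abundant member in CD45+ cells. For 19 macrophage and monocyte genes, led by Lyz2, the gene of lysozyme, the sums were 268, 7407, 16570 and 6548 CPM against 36110 to 51170 (median 42050). WT replicate 1 was lowest and cKO replicate 1 highest of the CD45- libraries in both sums, and no CD45- library reached the CD45+ range. Expressed as a percentage of the CD45+ mean, the median pan-leukocyte gene stood at 0.712, 14.2, 34.1 and 16.4% in the CD45- libraries and the median macrophage gene at 0.474, 16.6, 46.1 and 15.2%. In bulk RNA fewer cells of a type and less RNA per cell cannot be told apart, and the part of leukocytes among the CD45- cells in the fold changes below was not tested.

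Fibroblast RNA was scarce in the CD45+ libraries. The sum of 18 fibroblast genes, led by Col1a1, the gene of a type I collagen chain, was 73610, 40460, 17460 and 34410 CPM in the CD45- libraries and 101 to 176 (median 142) in the CD45+ libraries. The CD45- library with the lowest fibroblast sum, cKO replicate 1, was the one with the highest leukocyte sum. On principal components the CD45 label separated the libraries along the leading component, with 75.56% of the variance, and WT replicate 1 of the CD45- group stood apart along the next, with 8.1% of the variance and a score of 97.8 against -32.5 to -60.1 in the other 3.

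**Figure D1:**
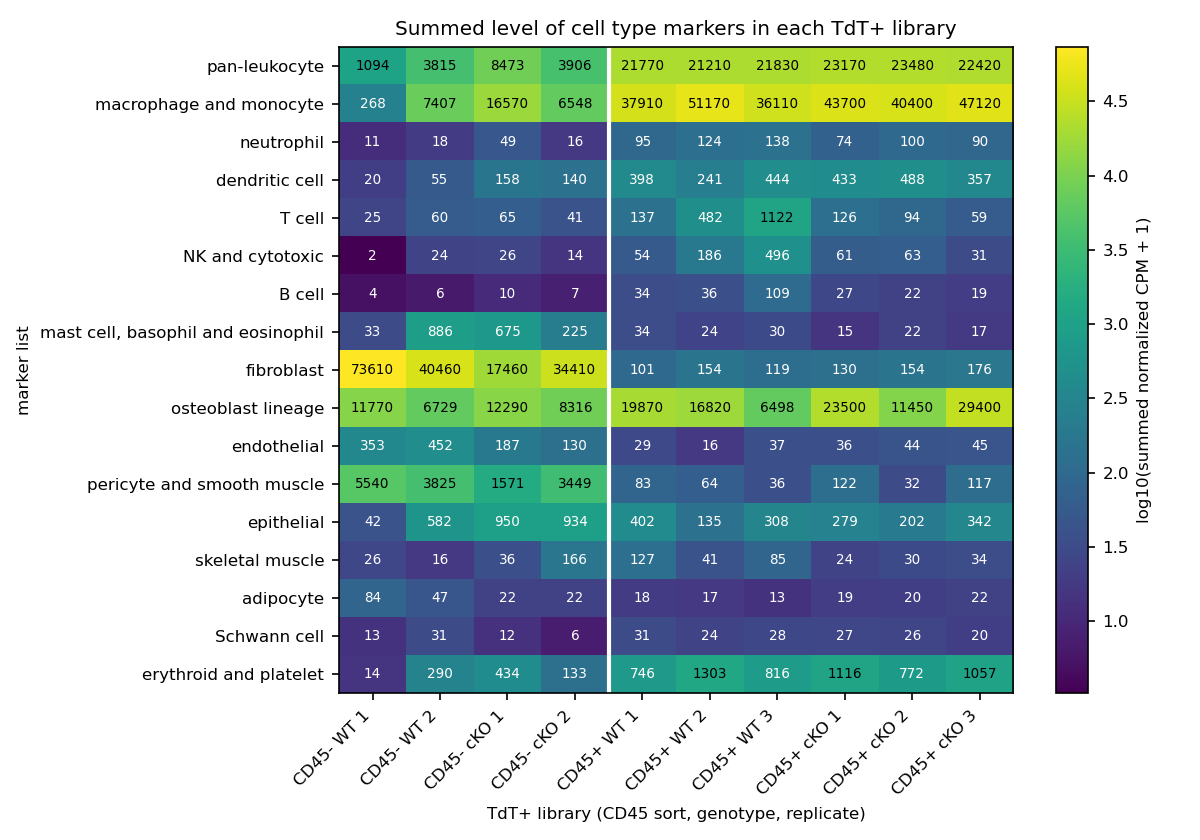
Summed levels of cell type marker lists in each TdT-positive library. Each column is 1 library, the cells print the sum in CPM and the colors show its log10.

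Of the 14232 genes tested, 2973 were higher in CD45+ cells (20.9%) and 4130 lower (29%), and 7129 were not called. These shares of all genes are the background of every list count below. With a log2 fold change of at least 2 in addition, 857 were higher (6.02%) and 2296 lower (16.1%). The libraries of the 2 arms did not overlap in 2329 genes with CD45+ higher (16.4%) and in 3156 with CD45- higher (22.2%). The median log2 fold change of all genes tested was -0.04. Library totals in place of TMM factors moved that median to -0.26 and the calls to 1998 higher and 5104 lower, so that 28.1% of the calls were higher in place of 41.9%.

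**Figure D2:**
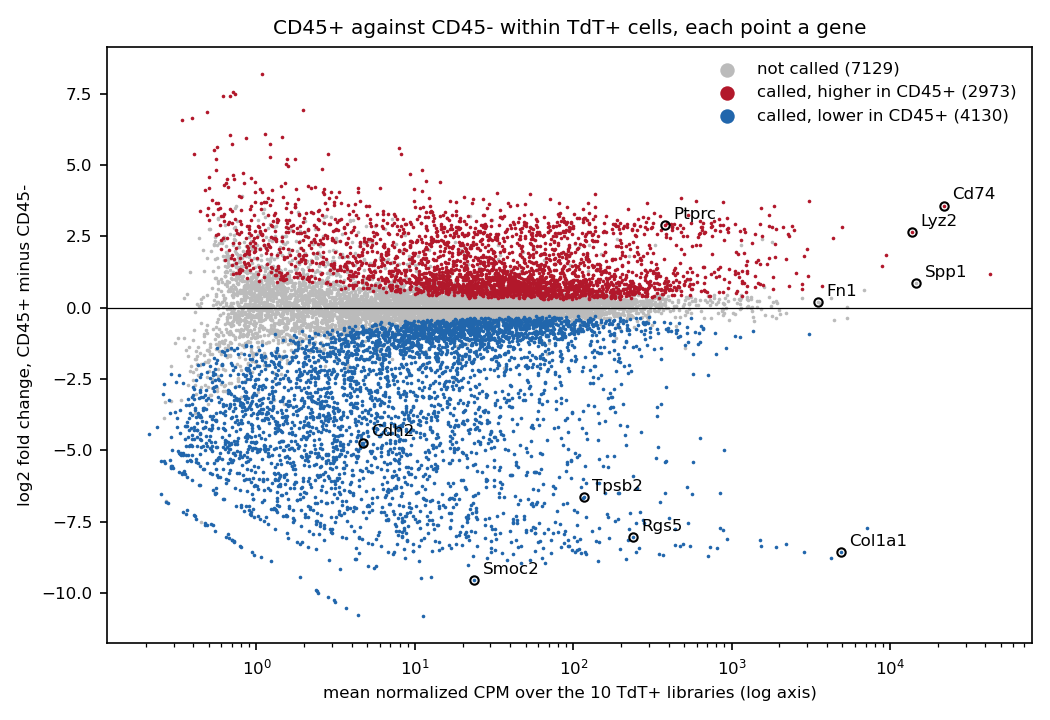
Log2 fold change of every gene tested, CD45+ minus CD45- within TdT-positive cells, against its mean level. Called genes are colored by direction.

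The genes with the largest rise in CD45+ cells, among protein-coding genes of at least 50 CPM whose libraries did not overlap, included genes of monocytes and of antigen presentation. Klrb1b, which encodes an inhibitory lectin-like receptor, had 0.103, 0.662, 7.74 and 12.2 CPM in the CD45- libraries and 25.6 to 88.2 (median 48.1) in the CD45+ libraries. Its CD45- libraries labelled WT were below those labelled cKO, and none reached the CD45+ range (log2 fold change 4.01, SE 0.95, adjusted p 0.00573). Cd24a, the gene of a small glycosyl-anchored surface protein, had 0.566, 4.05, 11.2 and 9.04 CPM against 60.8 to 129.7 (median 69.6), with WT replicate 1 lowest (log2 fold change 3.99, SE 0.64, adjusted p 0.000617). Cdh1 encodes E-cadherin, the cadherin of epithelia that some macrophages and dendritic cells also make. It had 0.823, 6.5, 56.4 and 14.2 CPM in the CD45- libraries and 104 to 353 (median 228) in the CD45+ libraries, the opposite direction to Cdh2 (log2 fold change 3.98, SE 0.95, adjusted p 0.00612). Ccl17, the gene of a chemokine that binds CCR4, was at 0.103, 3.7, 24.4 and 16.5 CPM against 70.8 to 221 (median 87.9) (log2 fold change 3.81, SE 0.99, adjusted p 0.00943). Ccr2, the receptor with which monocytes follow CCL2, was at 3.7, 91.9, 247 and 124 CPM against 918 to 1793 (median 1416) (log2 fold change 3.72, SE 0.89, adjusted p 0.00603). In each of these the CD45- library WT replicate 1 was lowest and the arms stayed apart. The others were Il1b (log2 fold change 3.74), the gene of interleukin 1 beta, H2-Aa (3.73) and H2-DMb2 (3.68) of MHC class II, Chil3 (3.67), a chitinase-like secreted protein, F10 (3.66), coagulation factor X, Gpr132 (3.65), a G protein-coupled receptor, and Mcemp1 (3.65), a membrane protein of mast cells and monocytes.

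The genes with the largest fall were lower by more than those rose, down to a log2 fold change of -9.56. Smoc2, which encodes a secreted calcium-binding matrix protein, had 81, 58.3, 24.7 and 72.4 CPM in the CD45- libraries and 0 to 0.159 (median 0.0752) in the CD45+ libraries. No CD45+ library reached 1 CPM (log2 fold change -9.56, SE 0.53, adjusted p 6.57e-07). Tmem100, the gene of a small membrane protein that takes part in BMP signalling, had 218, 251, 62.3 and 128 CPM against 0.159 to 0.457 (median 0.32) (log2 fold change -8.96, SE 0.36, adjusted p 2.35e-07). Sulf1, the gene of an extracellular enzyme that trims sulfate from heparan chains, had 542, 363, 168 and 357 CPM against 0.4 to 0.977 (median 0.841) (log2 fold change -8.87, SE 0.41, adjusted p 2.7e-07). In these 3 genes cKO replicate 1 was the lowest CD45- library and the arms were far apart. The Wnt antagonist Sfrp4 fell by 8.86 and its relative Sfrp1 fell by 8.84 on the log2 scale. Cthrc1, a secreted protein of activated fibroblasts, had 888, 511, 161 and 595 CPM against 0.634 to 1.91 (median 1.06) (log2 fold change -8.81, SE 0.54, adjusted p 1.01e-06). The remainder were Prss35 (log2 fold change -9.01), a serine protease-like protein, Prelp (-8.97), a leucine-rich proteoglycan, Col1a2 (-8.79), the other type I collagen chain, Cpxm2 (-8.79), a carboxypeptidase-like protein, Hs3st1 (-8.78), a heparan sulfotransferase, and C1qtnf2 (-8.72), a C1q and TNF related protein.

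Matrix genes were lower almost without exception. All 9 fibrillar collagen genes tested were lower in CD45+ cells, with a median log2 fold change of -8.49 beside -0.04 over all genes. Col1a1 had 22540, 10560, 5610 and 9799 CPM in the CD45- libraries and 20.8 to 37.1 (median 33.6) in the CD45+ libraries (log2 fold change -8.58, SE 0.46, adjusted p 5.33e-07). Col3a1, the gene of type III collagen, had 14710, 6516, 1917 and 5512 CPM against 12.2 to 22.2 (median 18.2) (log2 fold change -8.55, SE 0.54, adjusted p 1.19e-06). In both genes WT replicate 1 was highest and cKO replicate 1 lowest of the CD45- libraries, the reverse of the order for Ptprc. All 18 genes of collagen-processing enzymes were lower as well (median -5.97). They ran from Lox (-8.58), whose product crosslinks collagen, to P4ha1 (-0.81), a prolyl hydroxylase. P4ha1 kept 121 to 177 (median 161) CPM in CD45+ cells beside 303, 211, 278 and 293 in CD45- cells. Serpinh1, the gene of the collagen chaperone HSP47 and the most abundant of these per kb in CD45- cells, had 7889, 3190, 2443 and 5387 CPM against 10.6 to 17.9 (median 13.9) (log2 fold change -8.40, SE 0.41, adjusted p 3.3e-07).

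Of 22 basement membrane genes tested 20 were lower (median -4.81), and Lamb3, a laminin chain, and Nid2, a nidogen, were not called. Nid1, the gene of the other nidogen, had 983, 656, 311 and 514 CPM in the CD45- libraries and 1.09 to 2.21 (median 1.57) in the CD45+ libraries, whereas Nid2 had 27.6, 29.6, 21.4 and 16.9 CPM against 10.7 to 19.8 (median 15.7). The arms were far apart for Nid1 (log2 fold change -8.58, SE 0.38, adjusted p 2.67e-07) and overlapped for Nid2 (log2 fold change -0.61, SE 0.24, adjusted p 0.0528). Nid2 was called lower without the CD45- library cKO replicate 2 (adjusted p 0.0317) and Lamb3 without CD45- WT replicate 1 (0.0078). All 9 small leucine-rich proteoglycan genes tested were lower (median -8.12). Dcn, the gene of decorin, which binds collagen fibrils, had 3852, 3117, 973 and 1294 CPM against 4.01 to 9.88 (median 7.8) (log2 fold change -8.12, SE 0.44, adjusted p 5.77e-07). Fmod, the gene of fibromodulin, had 10.3, 11.9, 3.59 and 5.45 CPM in the CD45- libraries and 0 counts in all 6 CD45+ libraries, a difference of at least 293-fold where 3 counts over the arm are taken as the floor.

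Of 31 elastic fiber and matricellular genes 29 were lower (median -7.72), led by Eln, the gene of elastin (-8.58). Sparc, the gene of osteonectin and the most abundant of the list per kb in CD45- cells, had 31540, 15220, 8496 and 16000 CPM in the CD45- libraries and 58.8 to 145 (median 77) in the CD45+ libraries (log2 fold change -7.72, SE 0.47, adjusted p 1.01e-06). The exceptions, chosen for naming after the values were seen, were Fn1 and Thbs1. Fn1, the gene of fibronectin, had 3613, 2780, 3453 and 2784 CPM in the CD45- libraries and 2464 to 4878 (median 3939) in the CD45+ libraries. The arms overlapped, and the fold change was 0.20 (SE 0.21, adjusted p 0.452) with TMM factors and -0.01 with library totals, the opposite direction. Fn1 stood at 319.6 CPM per kb in CD45+ cells, where Col1a1 stood at 4.69 and Sparc at 25.5. Thbs1, the gene of thrombospondin 1, which activates TGF-beta, had 689, 436, 314 and 547 CPM against 271 to 531 (median 419), again with overlap (log2 fold change -0.32, SE 0.28, adjusted p 0.364).

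Of 21 genes of matrix proteases and their inhibitors tested 13 were lower (61.9%) and 3 higher (14.3%, with 20.9% of all genes higher, median -2.88), the latter being Mmp12, Mmp8 and Plaur. Mmp12, the gene of macrophage elastase, had 10, 68.4, 654 and 141 CPM in the CD45- libraries and 421 to 2118 (median 1096) in the CD45+ libraries. The CD45- library cKO replicate 1 lay within the CD45+ range and the other 3 below it (log2 fold change 3.02, SE 0.84, adjusted p 0.0129). Mmp8, the gene of a collagenase of neutrophils, rose without overlap from 3.08 to 9.99 CPM in CD45- cells to 30 to 54 (median 42.5) (log2 fold change 2.55, SE 0.31, adjusted p 9.07e-05). Mmp3, the gene of stromelysin 1, had 2833, 799.5, 362 and 357 CPM against 2.17 to 8.4 (median 4.05), with WT replicate 1 far above the rest (log2 fold change -7.76, SE 0.75, adjusted p 1.91e-05). Mmp14, a membrane-bound activator of MMP2, had 712, 339.8, 196 and 400.5 CPM against 84.4 to 111 (median 102) and Mmp2 1079, 634, 311 and 311 CPM against 4.85 to 16.6 (median 9.5). Both arms were apart in each, with a smaller fall for Mmp14 (-2.02) than for Mmp2 (-5.91). Timp1, the most abundant inhibitor per kb, fell by 3.39 on the log2 scale (adjusted p 0.000116).

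Genes of adhesion moved by family. Of 16 genes of matrix-binding integrin chains tested 12 were lower and none higher (median -2.21), and of 7 leukocyte integrin chains 6 were higher and none lower (median 2.64). Itga11, whose product pairs with integrin beta 1 to bind collagen, had 16.5, 16.5, 3.21 and 2.14 CPM in the CD45- libraries and 0 to 0.227 (median 0.0857) in the CD45+ libraries (log2 fold change -6.18, SE 0.62, adjusted p 2.6e-05). Itgal, the alpha chain of LFA-1, had 0.566, 9.54, 21.5 and 19.8 CPM against 61.4 to 142 (median 80.3) (log2 fold change 3.04, SE 0.65, adjusted p 0.00341). The arms were apart in both genes, in opposite directions. Of 13 cadherin and catenin genes 12 were lower and Cdh1 alone was higher (median -3.40). Cdh11, the cadherin of mesenchymal cells, had 328, 187, 80.9 and 148 CPM against 0.361 to 1.19 (median 0.718) (log2 fold change -7.89, SE 0.49, adjusted p 1.17e-06), and Ctnna1, the gene of alpha catenin, which ties cadherins to actin, fell less, by 0.77 on the log2 scale. Of 22 caveolar and focal adhesion genes 15 were lower and 1 higher (median -3.51). Cavin1, which coats caveolae, had 1071, 1278, 578 and 796 CPM against 12.6 to 29.3 (median 21.4) (log2 fold change -5.39, SE 0.30, adjusted p 6.39e-07). Cav1, the gene of caveolin 1, had 162, 362, 448 and 306 CPM against 28.6 to 76.1 (median 37.2) and was lowest of the CD45- libraries in WT replicate 1, unlike Cavin1 (log2 fold change -2.84, SE 0.33, adjusted p 7.09e-05).

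Pairs of related genes were compared in adhesion, actin control, receptor signalling, oxidase activity and transcription, 24 in all. In each pair 1 gene is the hematopoietic member. The other is expressed broadly or in mesenchymal cells and is called the mesenchymal member for short, also where blood cells use it. In 16 pairs the mesenchymal member was lower and the hematopoietic member higher in CD45+ cells, in 7 the mesenchymal member was not called and the hematopoietic member was higher, and in 1 both were lower. The pairs were chosen for this contrast with earlier results known, and 11 of the hematopoietic members are also in the pan-leukocyte list, so the counts describe these pairs and no more. In CPM per kb the hematopoietic member was the more abundant in CD45+ cells in 23 pairs, the mesenchymal member the more abundant in CD45- cells in 15, and both held in 14.

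**Figure D3:**
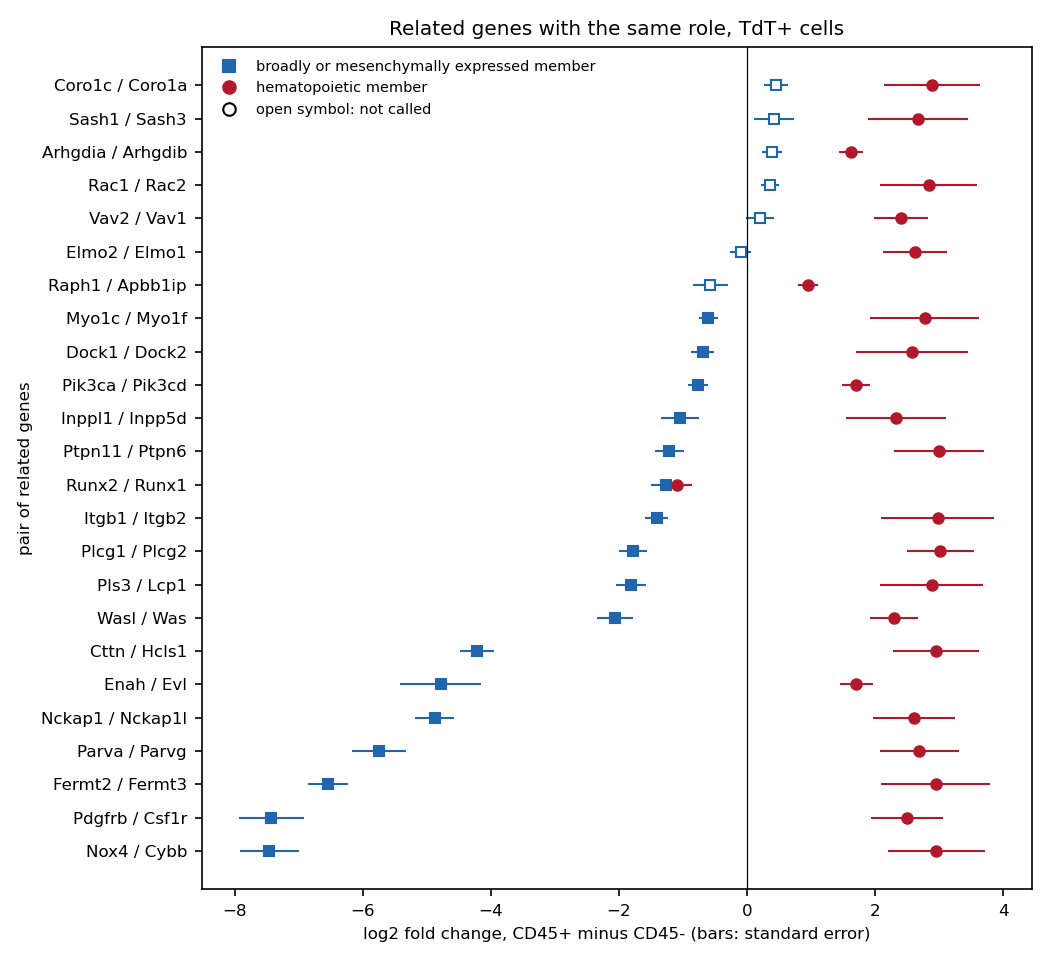
Log2 fold change of the broadly or mesenchymally expressed member and of the hematopoietic member of 24 paralog pairs, with bars of 1 standard error. Each line of the plot is 1 pair.

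Kindlins activate integrins at their beta chains. Fermt2, the widespread kindlin, had 262, 177, 123 and 173 CPM in the CD45- libraries and 1.08 to 3.01 (median 1.98) in the CD45+ libraries (log2 fold change -6.54, SE 0.31, adjusted p 2.7e-07). Fermt3, that of blood cells, had 1.44, 78, 198 and 105 CPM against 431 to 844 (median 598) (log2 fold change 2.94, SE 0.85, adjusted p 0.0156). The arms were apart in both, and Fermt3 lost its call with the replicate block (adjusted p 0.0712). Parva, a parvin at integrin adhesions, fell by 5.74 and its paralog Parvg changed by 2.69 on the log2 scale. Cttn, the gene of cortactin, which holds branched actin, had 264, 212, 277 and 299.6 CPM against 6.22 to 24.6 (median 12.5) (log2 fold change -4.21, SE 0.27, adjusted p 1.2e-06). Hcls1, its relative in blood cells, had 5.04, 35.9, 127 and 64.7 CPM against 258 to 502 (median 329) (log2 fold change 2.94, SE 0.67, adjusted p 0.00472). The 4 CD45- libraries lay close together for Cttn, and cKO replicate 1 was highest for Hcls1. Nckap1 and Nckap1l, alternative subunits of the WAVE complex, moved by -4.88 and 2.61, and Wasl and Was, activators of the Arp2/3 complex, by -2.07 and 2.30. Enah and Evl, which extend actin filaments, moved by -4.79 and 1.71, and Plcg1 and Plcg2, phospholipases downstream of receptors, by -1.78 and 3.01.

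The 7 pairs whose mesenchymal member was not called were those of Rac1, Arhgdia, Coro1c, Vav2, Elmo2, Raph1 and Sash1. With individual libraries left out the adjusted p of Rac1, Arhgdia, Coro1c and Raph1 fell as low as 0.0417, 0.039, 0.0174 and 0.0231. Rac1, Arhgdia and Coro1c were then higher and Raph1 lower, and the replicate block called Raph1 lower as well (adjusted p 0.0262). Vav2, Elmo2 and Sash1 were called in no alternative. Elmo2, a partner of DOCK proteins in Rac activation, had 101, 86.2, 138 and 100 CPM in the CD45- libraries and 69 to 124 (median 99.3) in the CD45+ libraries. The arms overlapped throughout (log2 fold change -0.10, SE 0.17, adjusted p 0.642), whereas Elmo1, its paralog, had 4.06, 21.1, 43.5 and 14.3 CPM against 102 to 133 (median 124) without overlap (log2 fold change 2.63, SE 0.50, adjusted p 0.00167). Coro1a, a coronin that binds actin in leukocytes, rose by 2.89 (adjusted p 0.0093) and Coro1c by 0.45 (adjusted p 0.0614). Arhgdib, whose product is abundant in blood cells, had 459, 614, 688 and 478 CPM against 1456 to 2100 (median 1684) (log2 fold change 1.62, SE 0.18, adjusted p 5.82e-05). It was the pan-leukocyte gene with the highest level in CD45- cells, where all 4 libraries, WT replicate 1 included, held at least 459 CPM. The pair that fell together was that of the RUNX transcription factors. Runx2, which bone formation needs, had 52.8, 38.8, 24.5 and 42.2 CPM against 13.2 to 22.9 (median 16.3) (log2 fold change -1.27, SE 0.23, adjusted p 0.0013), and Runx1, which blood formation needs, had 180.1, 109, 74.8 and 114 CPM against 44 to 67.3 (median 54.4) (log2 fold change -1.10, SE 0.24, adjusted p 0.00347). The arms did not overlap in either gene, and with the replicate block the adjusted p of Runx1 was 0.051.

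Promoter letters were read for the genes that moved by at least 4-fold, since the PU.1 gene Spi1 and the TEAD family were among them. Spi1 had 0.0514, 6.77, 8.64 and 6.45 CPM in the CD45- libraries and 25.6 to 52.6 (median 33.6) in the CD45+ libraries without overlap (log2 fold change 2.79, SE 0.74, adjusted p 0.0103). Tead1, whose product binds DNA for YAP1 and WWTR1, had 79.9, 64.2, 34.6 and 45.4 CPM against 0.698 to 5.45 (median 1.68), also without overlap (log2 fold change -4.74, SE 0.52, adjusted p 4.75e-05). RefSeq promoters of GRCm38.p6, 250 bases before the start, matched 10669 of the 14232 genes (75%), 72.9% of the 857 higher and 71% of the 2296 lower. With fewer than 80% matched, a comparison of shares between the groups is void, and the shares are given as a description of the promoters that were read. The letters GAGGAAGT, known for PU.1, were on either strand in 60 of the higher genes with a promoter (9.6%), in 14 of the lower (0.858%) and in 286 of all 10669 promoters (2.68%). The letters CCGGAAGT of other ETS factors, which share GGAAGT with those of PU.1, were in 1.76%, 0.92% and 5.75%. ACATTCC, known for TEAD, was in 1.76%, 3.99% and 2.4%, TGTGGTT, known for RUNX, in 6.72%, 3.31% and 3.35%, and TGANTCA, known for AP-1, in 8.8%, 6.56% and 4.6%. GGGCGG was in 34.2%, 54% and 57.7%, CCAAT in 30.6%, 33.4% and 36.4%, TATAAA in 12.2%, 10.2% and 6.76%, and the CArG box in 1.28%, 1.78% and 1.19%.

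Sequences of 3 promoters are given, with every match to a searched motif on either strand in capitals. They were chosen after the values were seen, among promoters that hold such letters. The choice took higher genes with the PU.1 letters and lower genes with the TEAD letters, so their presence was fixed in advance. The promoter of Ctsc, the gene of cathepsin C, which activates granule proteases, lies at chr7:88277835-88278084 on the + strand, and that of Mmp12 at chr9:7344147-7344396 on the + strand. Both genes were higher in CD45+ cells and both promoters hold ACTTCCTC, which is GAGGAAGT read on the other strand. That of Col3a1 at chr1:45311288-45311537 on the + strand belongs to a gene that was lower and holds ACATTCC. The RefSeq start and the start of the counted gene differ for some genes, and the end of the Mmp12 promoter lies within the counted gene. The other capitals are CCGCCC, which is GGGCGG on the other strand, and TATAAA, and a match to letters is no evidence that a factor binds there.
Ctsc: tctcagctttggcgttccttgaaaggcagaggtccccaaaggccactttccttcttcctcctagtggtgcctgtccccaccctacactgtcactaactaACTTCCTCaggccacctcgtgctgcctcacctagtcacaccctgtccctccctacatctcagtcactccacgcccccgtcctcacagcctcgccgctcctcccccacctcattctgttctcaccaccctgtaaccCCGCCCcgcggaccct
Mmp12: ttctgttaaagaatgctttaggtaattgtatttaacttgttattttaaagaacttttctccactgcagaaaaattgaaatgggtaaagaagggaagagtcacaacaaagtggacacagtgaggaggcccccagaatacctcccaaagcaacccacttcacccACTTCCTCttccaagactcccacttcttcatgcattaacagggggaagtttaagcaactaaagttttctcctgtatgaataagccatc
Col3a1: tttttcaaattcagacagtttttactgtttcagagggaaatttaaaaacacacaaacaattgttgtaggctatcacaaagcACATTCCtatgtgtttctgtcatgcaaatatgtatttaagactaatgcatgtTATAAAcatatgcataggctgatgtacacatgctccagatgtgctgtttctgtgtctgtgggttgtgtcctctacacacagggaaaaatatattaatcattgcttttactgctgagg

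Of 33 chemokine ligand genes tested 17 were higher in CD45+ cells (51.5%) and 8 lower (24.2%, with 29% of all genes lower, median 1.77), with 5 lower when CD45- WT replicate 1 was left out, an alternative chosen after the data were seen. Cxcl16, the ligand of CXCR6, had 15.9, 50.7, 156 and 75.9 CPM in the CD45- libraries and 318 to 408 (median 359.6) in the CD45+ libraries (log2 fold change 2.50, SE 0.46, adjusted p 0.00137). Ccl2, which draws monocytes, had 629, 792, 1201 and 419 CPM against 1447 to 4468 (median 2415) (log2 fold change 1.77, SE 0.41, adjusted p 0.00512). The arms did not overlap in these genes. Ccl11, which draws eosinophils, had 408, 131, 37 and 144 CPM against 0.17 to 0.685 (median 0.391) (log2 fold change -8.61, SE 0.56, adjusted p 1.42e-06). Cxcl13, which draws B cells, had 128, 221, 22.1 and 42.6 CPM against 0.155 to 1.2 (median 0.225) (log2 fold change -7.41, SE 0.68, adjusted p 1.28e-05). Cxcl12, which holds blood progenitors in their niche, had 380.1, 76, 25.8 and 29.3 CPM against 0.172 to 3.35 (median 0.627) (log2 fold change -6.71, SE 1.10, adjusted p 0.000677). WT replicate 1 was highest for Ccl11 and Cxcl12 and WT replicate 2 for Cxcl13, and CD45+ libraries stayed below 4 CPM in all 3. Ccl19, a ligand of CCR7, had 14.9, 3.39, 0.242 and 0.227 CPM against 0 counts in all CD45+ libraries, with both libraries labelled WT above those labelled cKO. Cxcl5 (-6.26), which draws neutrophils, and Cx3cl1 (-3.17), a membrane-bound ligand of monocytes, fell too.

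**Figure D4:**
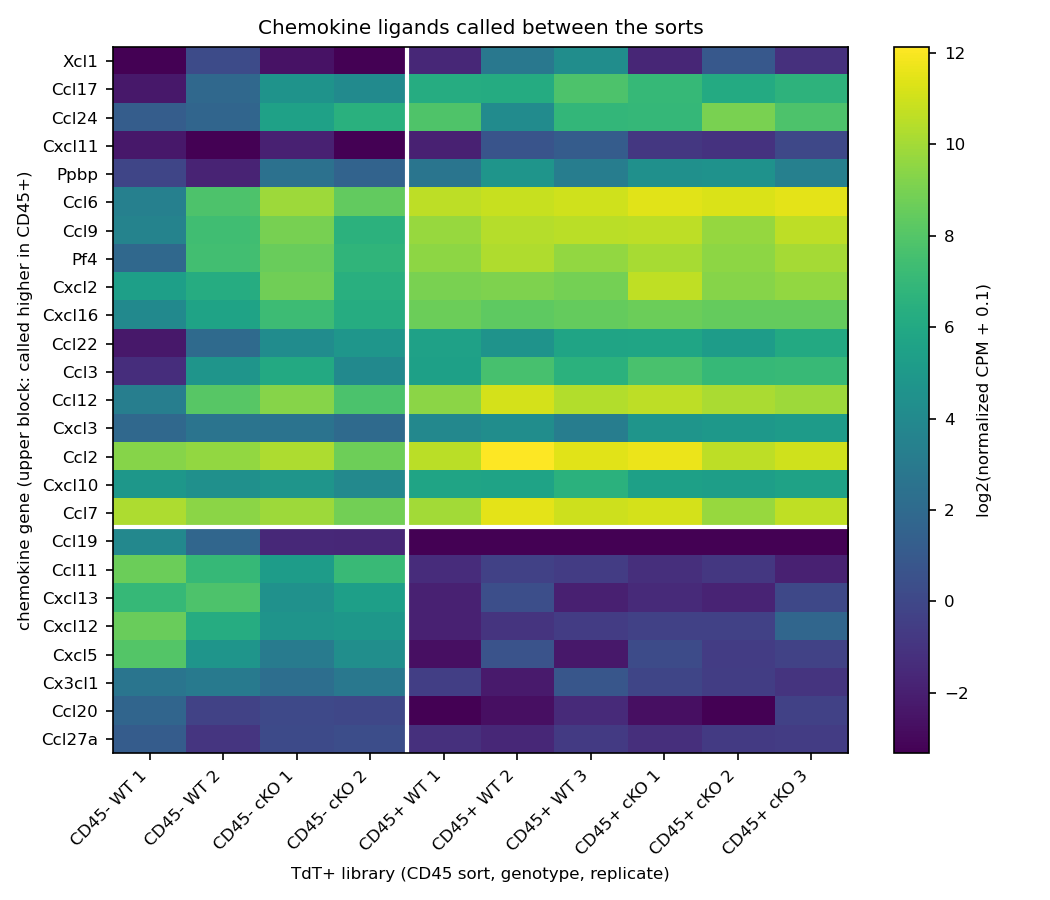
Levels of the called chemokine ligand genes in each TdT-positive library, as log2 of CPM. The upper block holds genes higher in CD45+ cells and the lower block those lower, each with the largest change on top.

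Of 20 chemokine receptor genes tested 10 were higher (50%) and 4 lower (20%), with 20.9% and 29% of all genes (median 2.47), and the 4 that fell were Ackr1, Ackr2, Ackr3 and Ackr4, the atypical receptors, which remove chemokines without G protein signalling. Of the other 16 receptor genes 10 were higher and 6 were not called, and the split by kind of receptor was made after the values were seen and was not tested. Ackr3, the atypical receptor of CXCL12, had 117, 258, 137 and 146 CPM in the CD45- libraries and 16 to 39.4 (median 26.1) in the CD45+ libraries (log2 fold change -2.60, SE 0.32, adjusted p 0.0001). Cxcr4, the signalling receptor of CXCL12, had 4.42, 10.3, 21.4 and 4.27 CPM against 25.3 to 84.7 (median 51.5) (log2 fold change 2.43, SE 0.51, adjusted p 0.00301). The arms were apart in opposite directions, with the ligand gene Cxcl12 on the side of Ackr3. Ackr2, which removes inflammatory CC chemokines, had 7.1, 7.59, 2.63 and 1.14 CPM against 0 to 0.309 (median 0.108) (log2 fold change -5.19, SE 0.67, adjusted p 0.000138), and Ackr1, a chemokine sink of venules, 5.14, 9.11, 1.76 and 1.27 CPM against 0 to 0.285 (median 0) (log2 fold change -6.12, SE 0.83, adjusted p 0.000198). Ackr4 was the least expressed, at 0.0514, 2.26, 1.04 and 0.955 CPM against 0 to 0.172 (median 0.0258), and lost its call without the CD45- library WT replicate 2 (adjusted p 0.0606) and with the replicate block (0.122).

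Of 26 cytokine genes tested 11 were higher (42.3%) and 9 lower (34.6%), with 20.9% and 29% of all genes (median 0.43). Il1b had 6.22, 46.8, 200.1 and 107 CPM in the CD45- libraries and 649.9 to 1285 (median 930.4) in the CD45+ libraries, and Il1a, the gene of interleukin 1 alpha, 0.257, 6.23, 40.2 and 28 CPM against 71.1 to 199 (median 144). WT replicate 1 was lowest and cKO replicate 1 highest of the CD45- libraries in both genes, below every CD45+ library. Il1b (adjusted p 0.00199) and Il1a (log2 fold change 3.52, SE 0.84, adjusted p 0.00609) rose together with Il1rn, the gene of the antagonist of their receptor (log2 fold change 3.31, SE 0.81, adjusted p 0.00708). Lta, the gene of lymphotoxin alpha, had 0 counts in all CD45- libraries and 0.172 to 2.53 (median 0.733) CPM in the CD45+ libraries, at least 38-fold higher. Among the cytokines that fell, Il33, an alarmin held in nuclei, had 312, 236, 156 and 227 CPM against 3.02 to 13.7 (median 4.11) (log2 fold change -5.33, SE 0.47, adjusted p 9.81e-06).

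The ligands of the macrophage growth factor receptor lay opposite to the receptor. Csf1, the gene of that growth factor, had 124, 104, 143 and 136 CPM in the CD45- libraries and 18.9 to 60.4 (median 39.8) in the CD45+ libraries (log2 fold change -1.83, SE 0.21, adjusted p 6.87e-05). Il34, its other ligand, had 65.5, 76.5, 61.2 and 46.8 CPM against 1.08 to 8.12 (median 2.09) (log2 fold change -4.54, SE 0.48, adjusted p 3.47e-05). Csf1r, the receptor, had 24.4, 179, 508 and 197 CPM against 847 to 1311 (median 1185) (log2 fold change 2.50, SE 0.57, adjusted p 0.00467). The arms did not overlap in any of the 3, and the 4 CD45- libraries were close together for the ligands and spread for the receptor. Of 40 genes of growth factors and their modulators 33 were lower and Pdgfb alone was higher (median -4.66). Pdgfb, a ligand of the platelet-derived growth factor receptors, had 7.3, 12.7, 8.5 and 5.68 CPM against 11.7 to 20.9 (median 17.8) with overlap, and its call did not hold with the replicate block (log2 fold change 0.99, SE 0.27, adjusted p 0.0112, blocked adjusted p 0.0561). Its receptor genes were on the other side. Pdgfrb had 806, 369.5, 249 and 461 CPM against 1.66 to 6.36 (median 2.28) (log2 fold change -7.42, SE 0.50, adjusted p 1.68e-06) and Pdgfra fell by 8.15 on the log2 scale.

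Inhba, the gene of the activin A subunit, was the most abundant growth factor gene per kb in CD45- cells. It had 644, 363, 505 and 489.8 CPM in the CD45- libraries and 7.42 to 76.6 (median 20.9) in the CD45+ libraries (log2 fold change -4.16, SE 0.55, adjusted p 0.000173). Fgf7, a growth factor for epithelia, had 62.8, 35.5, 12.3 and 14.6 CPM against 0 to 0.0931 (median 0.0285), with at most 0.0931 CPM in any CD45+ library. Igfbp7, an insulin-like growth factor binding protein, had 286, 168, 34.6 and 106 CPM against 0.285 to 0.681 (median 0.383) (log2 fold change -8.23, SE 0.55, adjusted p 1.62e-06). The TGF-beta genes differed among themselves, since Tgfb2 fell by 7.61 and Tgfb3 by 3.19 on the log2 scale while Tgfb1 was not called. Tgfb1 had 3.5, 2.76, 2.18 and 3 CPM against 2.75 to 5.5 (median 4) with overlap (log2 fold change 0.46, SE 0.29, adjusted p 0.211). Of 34 growth factor receptor genes 21 were lower (61.8%) and 7 higher (20.6%, with 20.9% of all genes higher, median -2.16). Csf2rb, the shared chain of the receptors for GM-CSF, IL-3 and IL-5, had 11.2, 39.4, 141 and 75 CPM against 221 to 537 (median 425) (log2 fold change 2.85, SE 0.50, adjusted p 0.000986), and Mertk, with which macrophages take up dying cells, 7.66, 20.2, 44.8 and 17.1 CPM against 48.1 to 105 (median 74.8) (log2 fold change 1.87, SE 0.36, adjusted p 0.0019). Neither overlapped between the arms.

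Antigen presentation was higher in CD45+ cells. All 10 MHC class II genes tested were higher (median 3.37). Cd74, the invariant chain, had 209, 1684, 6769 and 7142 CPM in the CD45- libraries and 10870 to 55770 (median 34080) in the CD45+ libraries (log2 fold change 3.57, SE 0.88, adjusted p 0.00701). Ciita, the factor that switches these genes on, had 0.669, 4.05, 5.39 and 9.23 CPM against 15.9 to 67.4 (median 42.2) (log2 fold change 3.24, SE 0.69, adjusted p 0.00325). Both were lowest in WT replicate 1 and higher in the CD45- libraries labelled cKO than in those labelled WT, without reaching the CD45+ range. H2-Ob, part of the chaperone that restrains peptide loading, rose most of the class (4.08, adjusted p 0.00203). Class I presentation moved less, with 9 of 14 genes higher and none lower (median 0.96). B2m, the light chain of class I molecules, had 2187, 1599, 2036 and 1288 CPM against 2807 to 4748 (median 3737) (log2 fold change 1.11, SE 0.22, adjusted p 0.00234), and Psmb9, a subunit of the immunoproteasome, 33.3, 15.9, 32 and 24.6 CPM against 76.6 to 160.4 (median 94) (log2 fold change 2.04, SE 0.30, adjusted p 0.000372). Of 25 interferon-stimulated genes 12 were higher (48%, with 20.9% of all genes higher) and none lower (median 0.65). Cxcl10, a chemokine that interferon induces, had 29.1, 21.2, 26 and 15.5 CPM against 41 to 94.7 (median 47.8) (log2 fold change 1.23, SE 0.24, adjusted p 0.00182).

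Receptors for immune complexes and microbial products followed. All 20 genes of Fc receptors and their proximal signalling were higher (median 2.71). Fcgr2b, the inhibitory receptor for IgG, had 92.7, 306, 791 and 228 CPM in the CD45- libraries and 1398 to 1904 (median 1726) in the CD45+ libraries (log2 fold change 2.36, SE 0.48, adjusted p 0.00246). Syk, the kinase that the activating receptors recruit, had 6.79, 19.8, 45.5 and 22.8 CPM against 78.5 to 135 (median 109.7) (log2 fold change 2.34, SE 0.35, adjusted p 0.000418). The arms were apart in both genes. Of 23 genes of Toll-like receptors and innate sensors 18 were higher and Nod1 alone was lower (median 2.23). Tlr2, a sensor of bacterial lipopeptides, had 7.41, 49.1, 75.3 and 21.5 CPM against 176 to 347 (median 284) (log2 fold change 2.89, SE 0.56, adjusted p 0.00196). Nod1, a cytosolic sensor of peptidoglycan, had 32.6, 23.2, 6.39 and 8.54 CPM against 2.5 to 3.95 (median 3.26), with the libraries labelled WT above those labelled cKO (log2 fold change -2.18, SE 0.35, adjusted p 0.000605). Nlrp3, the sensor of an inflammasome that matures interleukin 1 beta, had 0.103, 7.16, 23.7 and 6.27 CPM against 48.8 to 95.1 (median 81.2) (log2 fold change 3.23, SE 0.83, adjusted p 0.00901).

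Complement was divided between the arms by component. Of 18 genes tested 6 were higher and 12 lower (median -1.69). The genes that rose were C1qa, C1qb and C1qc, the chains of C1q, Cfp, the gene of properdin, and the receptors C5ar1 and C3ar1. Cfp, which stabilizes the alternative convertase, had 7.77, 161, 323 and 214 CPM in the CD45- libraries and 957 to 1314 (median 1094) in the CD45+ libraries (log2 fold change 2.83, SE 0.72, adjusted p 0.00847). C1qb had 27.5, 1181, 2951 and 1259 CPM against 4893 to 7290 (median 6586), and its call was lost without CD45- WT replicate 2 (adjusted p 0.0599), without CD45+ WT replicate 2 (0.0503), without CD45- cKO replicate 2 (0.073) and with the replicate block (0.0744). The proteases that C1q carries lay on the other side. C1s1, the gene of C1s, had 289, 148, 59.9 and 69.4 CPM against 0.171 to 1.27 (median 0.467) (log2 fold change -7.72, SE 0.63, adjusted p 5.96e-06). Serping1, the gene of the inhibitor of C1r and C1s, had 2116, 1366, 506 and 717 CPM against 1.75 to 5.45 (median 3.63) (log2 fold change -8.36, SE 0.54, adjusted p 1.36e-06). C3, the central component, had 1015, 523, 123 and 191 CPM against 10.2 to 54 (median 16.4) (log2 fold change -4.12, SE 0.49, adjusted p 8.45e-05), while its receptor gene C3ar1 rose. The calls of C1qa, C1qc and C3ar1 were lost in 8, 6 and 6 of the 10 fits that left out 1 library, with adjusted p up to 0.0846, 0.0886 and 0.0852 without CD45- cKO replicate 2, and with the replicate block (0.0871, 0.0723 and 0.0528). WT replicate 1 was the highest CD45- library for C1s1, Serping1 and C3 and the lowest for Cfp.

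The NADPH oxidase genes were divided as well. Of 11 genes tested 6 were higher (54.5%) and 4 lower (36.4%), with 20.9% and 29% of all genes (median 1.91). Cyba, a subunit of the phagocyte oxidase, had 272, 394, 769 and 428 CPM in the CD45- libraries and 1286 to 1824 (median 1743) in the CD45+ libraries, without overlap (log2 fold change 1.91, adjusted p 0.000146). Nox4, the oxidase of fibroblasts and vessel walls, had 50, 41.3, 16.1 and 19.5 CPM against 0 to 0.264 (median 0.171) (log2 fold change -7.46, SE 0.46, adjusted p 1.08e-06). Duox1, an oxidase that releases hydrogen peroxide, and Duoxa1, which brings it to the cell surface, fell by 5.99 and 5.17. Of 25 lysosomal genes 16 were higher (64%) and 4 lower (16%, with 29% of all genes lower, median 1.06). Ctsc had 620.4, 904, 1481 and 1263 CPM against 3566 to 5736 (median 4073) (log2 fold change 2.05, SE 0.22, adjusted p 4.27e-05). Ctsk, the gene of the collagen-degrading cathepsin K, had 1188, 844, 546 and 599 CPM against 51.2 to 207 (median 97) (log2 fold change -2.78, SE 0.33, adjusted p 8.13e-05). RNA of both cathepsins was present in both arms, and they moved in opposite directions without overlap.

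Of 19 checkpoint and suppressive genes tested 13 were higher and Cd276 alone was lower (median 2.43). The call of Cd276, a ligand of the B7 family, was lost in 6 of the 10 fits that left out 1 library, with an adjusted p of 0.123 without CD45- WT replicate 1, and with the replicate block (0.0925). Havcr2, the gene of TIM-3, had 1.49, 13, 60.2 and 18.2 CPM in the CD45- libraries and 90 to 172 (median 154) in the CD45+ libraries (log2 fold change 2.95, SE 0.76, adjusted p 0.00863). Pdcd1lg2, the gene of a ligand of PD-1, had 0.0514, 0.0778, 3.56 and 5.36 CPM against 4.17 to 30.1 (median 18.9), and the CD45- library cKO replicate 2 lay above the lowest CD45+ library (log2 fold change 3.84, SE 0.98, adjusted p 0.00847).

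**Figure D5:**
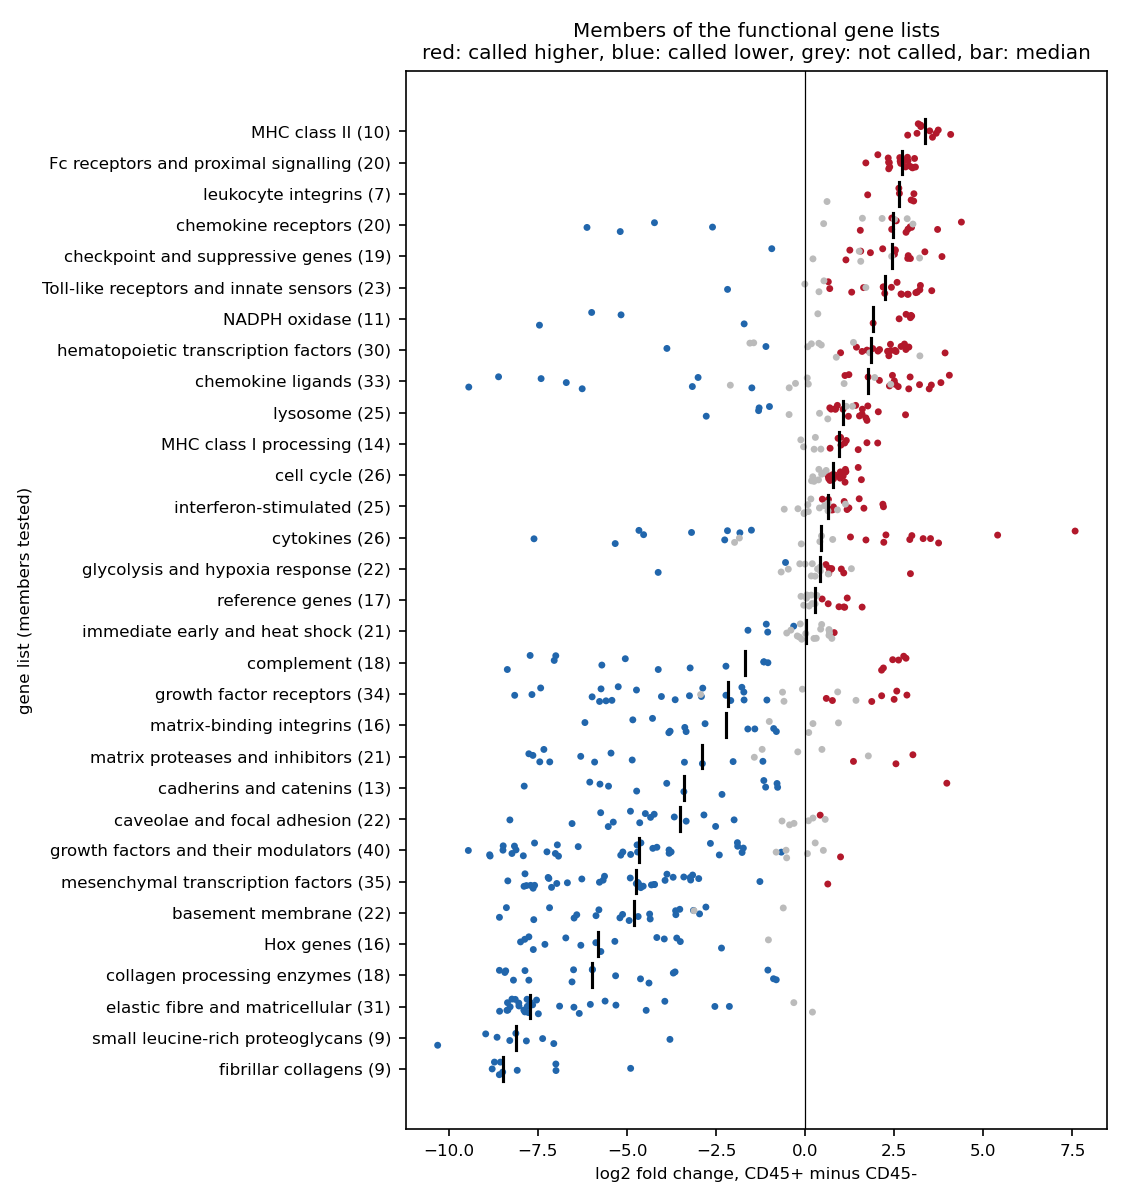
Log2 fold changes of the members of each functional gene list, with the median of each list. The cell type marker lists are left out, and the vertical line marks no change.

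Most mesenchymal transcription factor genes were lower in CD45+ cells, and 18 of 30 hematopoietic ones were higher, with 10 not called. Of 35 mesenchymal factor genes tested 34 were lower and Zeb2 alone was higher (median -4.74). Prrx1, a homeobox factor of limb and stromal mesenchyme, had 394, 245, 106 and 172 CPM in the CD45- libraries and 0.401 to 0.965 (median 0.609) in the CD45+ libraries (log2 fold change -8.35, SE 0.37, adjusted p 2.7e-07). Twist1, a factor of mesenchymal identity, had 45.2, 24.8, 14.8 and 18.9 CPM against 0.454 to 0.515 (median 0.495) (log2 fold change -5.63, SE 0.27, adjusted p 2.7e-07). Yap1, a coactivator that responds to cell stretch, had 40.8, 36, 17.1 and 30.1 CPM against 0.681 to 1.55 (median 0.965) (log2 fold change -4.91, SE 0.24, adjusted p 3.43e-07). All CD45+ libraries were below 2 CPM for these genes. Zeb2, a repressor of E-cadherin that blood cells also use, had 122, 79.1, 76.7 and 70.5 CPM against 110.1 to 159.9 (median 128), with WT replicate 1 inside the CD45+ range, and its adjusted p was 0.0125 with TMM factors and 0.0546 with library totals.

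Of 30 hematopoietic factor genes 18 were higher and 2, Gata2 and Runx1, lower (median 1.85). Ikzf1, the gene of Ikaros, had 1.29, 9.96, 13.9 and 8.59 CPM in the CD45- libraries and 44.2 to 73.5 (median 60.4) in the CD45+ libraries (log2 fold change 2.91, SE 0.51, adjusted p 0.00098). Irf5, a factor of inflammatory macrophages, had 5.14, 33.8, 57.6 and 40.6 CPM against 148 to 273 (median 180.5) (log2 fold change 2.69, SE 0.52, adjusted p 0.00181). Cebpa, a factor of myeloid progenitors, had 4.37, 12, 15.2 and 11 CPM against 26.7 to 47.8 (median 33.8) (log2 fold change 1.73, SE 0.28, adjusted p 0.000592). The arms were apart in all 3. Gata2, a factor of blood progenitors and mast cells, had 2.83, 11.5, 7.5 and 6.36 CPM against 0.228 to 0.795 (median 0.412) (log2 fold change -3.88, SE 0.48, adjusted p 0.000108). Of 16 Hox genes tested 15 were lower and Hoxb4 was not called (median -5.81). Hoxc10, which patterns the posterior trunk and hindlimb, had 62.8, 28.4, 11.6 and 14.9 CPM against 0.0529 to 0.229 (median 0.178) (log2 fold change -7.30, SE 0.41, adjusted p 6.42e-07), and Hoxc8 34.3, 16.2, 8.02 and 19.6 CPM against 0 to 0.172 (median 0.0548) (log2 fold change -7.99, SE 0.58, adjusted p 2.57e-06). WT replicate 1 was the highest CD45- library for both. Hoxb4, which blood stem cells use, had 2.52, 3.74, 0.933 and 1.59 CPM against 0.916 to 1.14 (median 0.988) with overlap (adjusted p 0.0526), and was called lower without CD45- cKO replicate 1 (adjusted p 0.0177).

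RNA of endothelial, pericyte and smooth muscle markers was higher in the CD45- arm. All 14 endothelial genes tested were lower in CD45+ cells (median -5.09), with sums of 353, 452, 187 and 129.9 CPM in the CD45- libraries and 16.4 to 44.9 (median 36.8) in the CD45+ libraries. Esam, the gene of an endothelial adhesion molecule and the most abundant member in CD45- cells, had 99.9, 91.5, 34.8 and 22 CPM against 0.186 to 1.59 (median 0.522) (log2 fold change -6.49, SE 0.61, adjusted p 1.56e-05), and Cdh5, the gene of VE-cadherin, 17.7, 21, 8.81 and 5.5 CPM against 0.799 to 2.1 (median 1.04) (log2 fold change -3.40, SE 0.43, adjusted p 0.000132). Of 13 genes of pericytes and smooth muscle 12 were lower and Cspg4 was not called (median -7.41). Their sums were 5540, 3825, 1571 and 3449 CPM against 32.1 to 122 (median 73.5). Rgs5, a G protein regulator of pericytes, had 1091, 898, 144 and 225 CPM against 1.03 to 2.9 (median 1.68) (log2 fold change -8.04, SE 0.68, adjusted p 7.14e-06), and Acta2, the smooth muscle actin that myofibroblasts share, 1846, 1331, 620.3 and 1471 CPM against 5.18 to 13.2 (median 5.95) (log2 fold change -7.55, SE 0.42, adjusted p 6.57e-07). Rgs5 and the endothelial sums were higher in the CD45- libraries labelled WT than in those labelled cKO. The part of these cells in the fold changes was not tested.

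Of 10 genes of mast cells, basophils and eosinophils tested 7 were lower and Siglecf alone was higher (median -5.69), with sums of 32.8, 886, 675 and 225 CPM in the CD45- libraries and 14.6 to 34 (median 22.9) in the CD45+ libraries. The call of Siglecf, a receptor of eosinophils, was lost without the CD45+ library cKO replicate 2 (adjusted p 0.0707) and with the replicate block (0.0576). It was also lost with limma voom (adjusted p 0.111) and in Cdh2-cKO libraries only (0.127). Epx and Il5ra, genes of eosinophils, were at 0 in all CD45- libraries. Tpsb2, the gene of a mast cell tryptase and the most abundant of the list, had 0.309, 568, 450 and 127 CPM against 0.412 to 10.4 (median 2.04). It was all but absent from WT replicate 1, which lay below the CD45+ libraries, and high in the other 3 CD45- libraries (log2 fold change -6.64, SE 1.44, adjusted p 0.0036). Its call was lost without CD45- WT replicate 2 (adjusted p 0.061) and with the replicate block (0.108). Mcpt8, a protease of basophils, had 32, 9.96, 13 and 35.6 CPM against 0 to 0.573 (median 0.0981) (log2 fold change -7.01, SE 0.76, adjusted p 4.09e-05). It was high in WT replicate 1 and cKO replicate 2 and so did not follow Tpsb2 between libraries. Fcer1a, the IgE-binding receptor chain that both cells carry, had 0.0514, 15.5, 5.36 and 3.14 CPM against 0 to 0.171 (median 0), with WT replicate 1 inside the CD45+ range (log2 fold change -7.19, SE 1.29, adjusted p 0.00118).

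Epithelial markers did not move as a group. Of 7 genes tested 2, Epcam and Cdh1, were higher (28.6%) and 4 were lower (57.1%), keratins in each case (median -3.38). Of all genes 20.9% were higher and 29% lower. The epithelial sums were 42, 582, 950.3 and 934 CPM in the CD45- libraries and 135 to 402 (median 293) in the CD45+ libraries. Krt8, the gene of a keratin of simple epithelia, had 8.74, 125, 210.1 and 214 CPM against 5.71 to 27 (median 9.85), with WT replicate 1 within the CD45+ range (log2 fold change -3.38, SE 0.61, adjusted p 0.0013). The sorted cells had been separated from tumor cells by GFP, and the part of residual tumor cells in these keratins was not tested. Lymphocyte genes varied between CD45+ libraries. The sums of 22 T cell genes were 58.9 to 1122 (median 132) CPM in the CD45+ libraries, with WT replicate 3 highest, and 25.1, 60.2, 64.6 and 41.1 in the CD45- libraries. Of 22 T cell genes tested 5 were higher, of 10 NK and cytotoxic genes 6 and of 5 B cell genes 3, and none were lower (medians 2.31, 2.39 and 2.25). For T cell genes this is 22.7%, close to the 20.9% of all genes called higher, and for NK and cytotoxic and for B cell genes 60% each. Cd2, an adhesion receptor of T and NK cells, had 1.18, 5.68, 7.53 and 2.64 CPM in the CD45- libraries and 21.6 to 137 (median 35.4) in the CD45+ libraries (log2 fold change 3.42, SE 0.67, adjusted p 0.00194). Ighm, the heavy chain of IgM, had 1.29, 3.46, 3.01 and 2.91 CPM against 8.69 to 78.9 (median 16.6) (log2 fold change 2.90, SE 0.61, adjusted p 0.00294). The sums of NK and cytotoxic genes were 2.26, 24.4, 25.6 and 13.5 CPM in the CD45- libraries and 31.2 to 496 (median 62) in the CD45+ libraries, and those of B cell genes 4.22, 5.72, 9.75 and 6.73 and 18.8 to 109 (median 30.9).

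All 22 pan-leukocyte genes tested were higher (median 2.85), as were 18 of 19 macrophage and monocyte genes (median 2.61), with Cd163 not called. Without CD45- cKO replicate 1 Cd163, a scavenger receptor, was called higher too (adjusted p 0.00987), as it was with the replicate block (0.0155). Lyz2 had 72, 3877, 7280 and 3268 CPM in the CD45- libraries and 13860 to 29230 (median 20810) in the CD45+ libraries, without overlap (log2 fold change 2.64, SE 0.85, adjusted p 0.0257). Its call was lost without the CD45- library cKO replicate 2 (adjusted p 0.0665) and with the replicate block (0.0515). Of 9 dendritic cell genes 7 were higher and 1, Zbtb46, lower (median 2.49), with sums of 19.6, 55.3, 158 and 139.5 CPM against 241 to 488 (median 416). Cd209a, a lectin of monocyte-derived dendritic cells, had 0.0514, 2.06, 2.42 and 6.14 CPM against 10.8 to 123 (median 26.4) (log2 fold change 3.81, SE 1.01, adjusted p 0.0105). Of 8 neutrophil genes tested 2, Mmp8 and Csf3r, were higher (25%, with 20.9% of all genes higher, median 2.18), with sums of 10.9, 17.5, 49.4 and 16.3 CPM against 73.7 to 138 (median 97.3) and Elane at 0 in all CD45- libraries. Without CD45- cKO replicate 2 the adjusted p was 0.0808 for Csf3r, a receptor of neutrophils, and 0.163 for Zbtb46, a factor of dendritic cells, and these calls were lost in 5 and 6 of the 10 such fits. The replicate block ended that of Csf3r (adjusted p 0.0769). Without the CD45- library cKO replicate 1, which held the most leukocyte RNA, neutrophil genes called higher numbered 6 and T cell genes 9, an alternative chosen after the data were seen.

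The smaller lists were mixed. Of 8 erythroid and platelet genes 2, Ppbp and Pf4, were higher (25%, with 20.9% of all genes higher) and Itga2b lower, with 5 lower when CD45- WT replicate 1 was left out (median -1.92), with sums of 14.5, 290, 434 and 133 CPM in the CD45- libraries and 746 to 1303 (median 936) in the CD45+ libraries, led by Pf4. Pf4, a platelet chemokine that macrophages also make, had 3.7, 175, 395 and 109.9 CPM against 736 to 1263 (median 917), and Itga2b, the platelet integrin chain, 8.07, 2.76, 6.6 and 4.27 against 0.114 to 1.22 (median 0.555) (log2 fold change -3.31, SE 0.59, adjusted p 0.00111). Ppbp, the other platelet chemokine, rose by 3.21 (adjusted p 0.00406), and the call of Pf4 was lost without CD45- WT replicate 2 (adjusted p 0.0525), without CD45- cKO replicate 2 (0.0713) and with the replicate block (0.0506). Of 7 osteoblast lineage genes tested 4 were lower (57.1%, with 29% of all genes lower, median -1.27). Spp1, the gene of osteopontin, made up nearly all of that list in both arms, with 11700, 6673, 12250 and 8254 CPM against 6481 to 29380 (median 18330). The arms overlapped (log2 fold change 0.85, SE 0.38, adjusted p 0.0898), and Spp1 was called higher by DESeq2 (adjusted p 0.0392), without the CD45+ library WT replicate 3 (adjusted p 0.0292) and with the replicate block (0.0432). Ibsp, the gene of bone sialoprotein, had 0.0514, 4.63, 0.726 and 3.32 CPM against 0 to 0.285 (median 0.0258) (log2 fold change -4.90, SE 1.19, adjusted p 0.00654). The CD45- library WT replicate 1 lay inside the CD45+ range of Ibsp, and the CD45+ libraries held 8 counts of it in all. Of 11 skeletal muscle genes 2 were higher (18.2%, with 20.9% of all genes higher, median -0.80), of 4 adipocyte genes Fabp4 alone was lower (25%, with 29% of all genes lower, median -1.03), and of 2 Schwann cell genes Mbp was higher and S100b lower (median 0.24). Without CD45- WT replicate 2 the adjusted p of S100b was 0.0567, and with the replicate block 0.0654. Over all 10 libraries their sums ran from 16.4 to 166, from 13 to 83.8 and from 5.91 to 31.2 CPM.

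Lists of general functions were read as well. Of 26 cell cycle genes tested 18 were higher and none lower (median 0.78). Mki67, the gene of the proliferation marker Ki-67, had 41.6, 59.2, 58.4 and 41.8 CPM in the CD45- libraries and 68.4 to 137 (median 114) in the CD45+ libraries (log2 fold change 1.14, SE 0.20, adjusted p 0.00115), and Mcm5, a subunit of the replicative helicase, 35.5, 35.6, 77.6 and 59.2 CPM against 119 to 182 (median 149.9) (log2 fold change 1.58, SE 0.25, adjusted p 0.000599). Neither overlapped between arms. Of 22 genes of glycolysis and the response to low oxygen 8 were higher (36.4%) and 2, Adm and Hk1, lower (9.09%, median 0.42). Of all genes 20.9% were higher and 29% lower. The arms overlapped for Hk1, and its call was lost in wild type libraries only (adjusted p 0.3) and over all 22 libraries (0.0649). Adm, the gene of the vasodilator adrenomedullin, had 124, 121, 200 and 54.7 CPM against 3.31 to 23.4 (median 5.39) (log2 fold change -4.13, SE 0.52, adjusted p 0.000124). Of 21 immediate early and heat shock genes 1, Btg2, was higher (4.76%) and 4 lower (19%), both under the 20.9% and 29% of all genes (median 0.02). Fos, an AP-1 subunit that rises on cell handling, had 1404, 1004, 1744 and 988 CPM against 1028 to 2514 (median 1446), with the arms overlapping (log2 fold change 0.25, SE 0.25, adjusted p 0.449). Of 17 reference genes 7 were higher (41.2%, with 20.9% of all genes higher) and none lower (median 0.28). Actb, the gene of beta actin, had 19590, 22980, 28170 and 26810 CPM against 43250 to 74730 (median 51730) (log2 fold change 1.18, SE 0.23, adjusted p 0.00192), so it was no flat reference here, whereas Ppia, the gene of cyclophilin A, had 55.6, 76, 75.2 and 71.6 CPM against 71.4 to 119 (median 83.2) with overlap (log2 fold change 0.33, SE 0.17, adjusted p 0.131). Rpl32, a ribosomal protein gene, stood at 2164 and 2631 CPM per kb in CD45- and CD45+ cells (adjusted p 0.179).

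Counts were more concentrated in CD45+ libraries, where the 100 most counted genes took 36.7% ± 1.17 (SD, n = 6) of the counts beside 30.2% ± 2.49 (SD, n = 4) in CD45- libraries. By an exact permutation test over the 210 assignments of libraries the p was 0.00476, the smallest possible, and 0.0238 after adjustment over 5 library measures. The share on 35 mitochondrial genes was 1.62% ± 0.563 (SD, n = 6) against 1.67% ± 0.737 (SD, n = 4), and that on 84 ribosomal protein genes 2.05% ± 0.215 against 2.12% ± 0.188. The adjusted exact p values were 0.881 and 0.738, and those for counts on genes and genes with at least 3 counts were 0.476 and 0.286. This test did not use the replicate number. In all 4 pairs of the same genotype and number the CD45+ library had fewer genes with at least 3 counts and a larger share in the 100 most counted genes, and a paired test was not run.

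The CD45 difference depended on genotype in 0 of the 14232 genes (0%) by edgeR, with 1443 genes at an unadjusted p under 0.05 and a smallest adjusted p of 0.112. In simulated counts this test called 0 of 100 genes given a log2 change of 1 and 76 of 100 given 3. It could therefore miss a dependence of the smaller size, and 0 calls do not show that there was none. The limma voom fit also called 0 genes and DESeq2 called 206. Leaving out the CD45- library WT replicate 2 gave 843 genes and leaving out CD45- cKO replicate 2 gave 1. Each of these fits keeps 1 CD45- library in that genotype, so that its spread is taken from the other groups, and no conclusion is drawn from the 2 counts. The difference depended on TdT in 1 of 15043 genes tested over all 22 libraries (0.00665%), with 1435 genes at an unadjusted p under 0.05. The count for CD45 difference that depends on TdT was 3 with limma voom, 46 with DESeq2, 0 in wild type libraries only, 553 in Cdh2-cKO libraries only and 1 to 19 with 1 library left out, so it moved with the test and with the libraries used. That gene was Mrps34, which encodes a protein of the mitochondrial ribosome. In this fit of 22 libraries, which has its own scaling, its log2 difference between CD45+ and CD45- cells was 0.13 in TdT-positive cells and 3.22 in TdT-negative cells, an interaction of -3.09 (SE 0.41, adjusted p 0.0097). The mean levels were 8.78 and 8.15 CPM in TdT-positive CD45+ and CD45- cells and 6.60 and 0.808 CPM in TdT-negative ones, so the TdT-negative CD45- cells were low and the other 3 populations were at 6.60 to 8.78 CPM. By edgeR over all libraries no gene was shown to differ between CD45+ and CD45- cells in the TdT-positive cells alone, and a call that is missing does not show that the difference was the same. In simulated counts the TdT test called 9 of 100 genes given a log2 change of 1 and 91 of 100 given 3.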

How the data were processed

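RNA of sorted cells had been made into cDNA with a SMARTer kit and sequenced as single reads, and per the labels the authors aligned reads to GRCm38 with STAR 2.0.4b and counted them per gene with Subread featureCounts 1.45. The deposited files give raw counts for 41388 genes in each of 22 libraries, and beside them CPM and RPKM that the authors computed from those counts. The CPM and RPKM columns were only checked against the counts, and every value printed was computed from the counts. The use of strand in counting is not stated, so reads of overlapping genes on opposite strands are not told apart.

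The 355 genes annotated as rRNA and the 1048 without an entry in the annotation were listed, rRNA genes were left out, and genes with more than 1 CPM in at least 2 of the 10 libraries were tested. Counts were fitted in R 4.3.3 with edgeR 4.0.16 (TMM factors, quasi-likelihood F test, genotype and CD45 as terms), with p values adjusted across all genes tested by the Benjamini-Hochberg method. Interactions used the same tool, the TdT interaction with 22 libraries as 8 group means. Library measures were compared by an exact permutation test. The code was tested on simulated data. The 18467273 to 26784003 counts per library set floors that cover counting error only.

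Alternatives were limma 3.58.1 (voom with quality weights), DESeq2 1.42.0, a robust fit, RLE factors, library totals, other filters, no genotype term, replicate number as a block, each genotype alone, all 22 libraries, and each library left out. The replicate numbers come from the sample titles. Over genes, the deviations of the 4 CD45+ and CD45- libraries of the same genotype and number from their group means correlated at 0.102 to 0.166, and the block was therefore run as an alternative.

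The genes named are Ptprc, Sp7 and Cdh2, the 12 protein-coding genes with the largest change in each direction among genes called that do not overlap and reach 50 CPM, and from each gene list the most abundant, the most changed and the contrary members, with further members as examples of a count. The comparison and the lists were chosen with earlier results of these data known. Promoter sequences are from RefSeq (GRCm38.p6).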

Additional observations from a re-analysis of the deposited data

Results flagged for a closer look

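Within groups of libraries 96 sets of values were checked for a library that stands apart, and 5 held such a library. Chance flags about 1 in 20 groups. The share of counts on mitochondrial genes was 2.76% in the CD45+ library WT replicate 2. The summed NK and cytotoxic markers reached 496 CPM and the summed B cell markers 109 CPM in the CD45+ library WT replicate 3. The summed skeletal muscle markers reached 166 CPM in the CD45- library cKO replicate 2. Hs3st1 was at 0.344 CPM in the CD45+ library WT replicate 1, near the floor of counting. By edgeR over all 22 libraries 1 of 15043 genes, Mrps34, was called for a CD45 difference that depended on TdT, with an interaction of -3.09 on the log2 scale.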

How the results depend on the processing

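The genes higher in TdT+;CD45+ cells numbered 2973, and 1998 to 3426 under the other tests, scalings and filters and over all 22 libraries. They numbered 1750 in wild type libraries only and 1571 in Cdh2-cKO libraries only. The genes lower in TdT+;CD45+ cells numbered 4130, and 3637 to 5104 under those alternatives, with 2628 in Cdh2-cKO libraries only. The genes at least 4-fold higher in TdT+;CD45+ cells numbered 857, with 324 in Cdh2-cKO libraries only, and the genes at least 4-fold lower in TdT+;CD45+ cells numbered 2296. With each library left out in turn the counts ran from 2409 to 2999 higher, from 3648 to 3999 lower, from 635 to 1094 at least 4-fold higher and from 2090 to 2300 at least 4-fold lower. The replicate block gave 2165 higher and 3323 lower, and 727 and 2154 at least 4-fold.

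The count of genes whose CD45 difference depended on genotype, 0, was 206 with DESeq2 and 138 with no filter on low counts, and 0 to 843 with each library left out. The count for TdT, 1, was 3 with limma voom, 46 with DESeq2, 0 in wild type libraries only and 553 in Cdh2-cKO libraries only, and ran from 1 to 19 with each of the 22 libraries left out.

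Of 189 named genes with a fold change 169 were called, and 132 of these held their call in all 23 alternatives. The settings that ended the most calls were wild type libraries only (24 calls), Cdh2-cKO libraries only (16 calls) and the replicate block (16 calls). The block added the calls of Cd163, Raph1 and Spp1. Each change by the block is given with its gene in the report, and it changed no other call of a named gene. Among genes not called, the log2 fold change of Fn1 turned to -0.011 with library totals and -0.110 in wild type libraries only. The log2 fold change of Vav2 turned to -0.023 with library totals and -0.093 in wild type libraries only, and the log2 fold change of Thbs1 to 0.151 in Cdh2-cKO libraries only. The log2 fold change of Mrps34 within TdT-positive cells turned to -0.159 with library totals, -0.003 with the replicate block and -0.075 in Cdh2-cKO libraries only.

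Gene list counts were also taken without the CD45- libraries that held the least and the most leukocyte RNA, WT replicate 1 and cKO replicate 1, alternatives chosen after the data were seen. Without WT replicate 1 chemokine ligand genes called lower numbered 5, erythroid and platelet genes called lower 5, skeletal muscle genes called higher 1, adipocyte genes called higher 1, immediate early genes called higher 2 and checkpoint genes called lower 0. Without cKO replicate 1 neutrophil genes called higher numbered 6, T cell genes called higher 9, growth factor genes called higher 2, adipocyte genes called higher 1, skeletal muscle genes called lower 1 and caveolar and focal adhesion genes called higher 0. The other list counts stayed within 1.5 times of those given.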

Other observations

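Xist, which females express, and Ddx3y, on the Y chromosome, divided the libraries by genotype and replicate number together. Ddx3y was at 123 CPM in the CD45- library WT replicate 1, 62.2 in CD45- cKO replicate 2, 93.7 in CD45+ WT replicate 1 and 85.8 in CD45+ cKO replicate 2, and at most 0.37 in the other 6. Xist was at 3.86 to 4.81 CPM in 3 of those 4 libraries and at 55.4 CPM in CD45- cKO replicate 2, where both genes were present. Ddx3y was high or low alike in libraries of the same genotype and number, while Xist differed between the CD45- and CD45+ libraries of cKO replicate 2 (55.4 and 3.96 CPM).

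The limits are few libraries, with 2 CD45- libraries per genotype, a CD45- arm that held leukocyte RNA in unequal amounts, and sex and mouse of origin that are not stated on the labels. Levels are shares of the RNA of mixed cells, and sorted cells were not counted here. Counts at the level of genes do not show the deleted part of Cdh2.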
